A study of Homo sapiens with 6 samples.

Results

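The lipid-binding proteins and receptors described here are 9 genes of the 58884 counted in HSC-4 cells. They comprise 4 fatty acid binding proteins (*FABP3*, *FABP4*, *FABP5* and *FABP6*), the retinoic acid binding protein *CRABP2*, the retinoic acid receptors *RARA* and *RARG*, and the fatty acid receptors *PPARD* and *PPARG*. They were taken by symbol, and the set was chosen by the DAPT values of some of them in these libraries, so their differences between the groups are given as a description with no test. HSC-4 is an established line from human oral squamous cell carcinoma. DAPT blocks γ-secretase, which cuts Notch receptors into their signalling form. RNA was sequenced from 3 libraries of HSC-4 treated with 50 µM DAPT and 3 control libraries, all collected at 24 h. The paper describes the controls as exposed to DMSO, the solvent, whereas their count tables are marked GM without a key. Had the controls been kept in growth medium alone, solvent and drug could not be told apart.

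Small lipids such as fatty acids and retinoic acid are poorly soluble in water, and proteins of the FABP and CRABP family carry them inside the cell. CRABP2 delivers retinoic acid to the retinoic acid receptors, and FABP5 delivers fatty acids, and in some cells retinoic acid, to PPARδ, the product of *PPARD*. Both receptor types bind DNA as partners of the retinoid X receptors. In stratified epithelium, retinoic acid restrains keratinization, and FABP5 is the epidermal form of its family.

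Total counts per library lay between 12276313 and 16317672, and the floor taken for detection was 3 counts in a library, which covers counting error only. *HES1*, a direct Notch target, had 683, 696 and 582 reads in the controls and 430, 372 and 355 with DAPT, a log2 fold change of -0.77 ± 0.08 (SE, n = 3 per group; edgeR quasi-likelihood test, adjusted p = 7.2e-08). All 8 squamous epithelium markers (*KRT5*, *KRT14*, *KRT6A*, *KRT17*, *TP63*, *CDH1*, *EPCAM*, *DSG3*) passed the low-count filter. Their summed level was 5174 to 5352 normalized CPM (reads per 1e6 counted) in the controls and 3333 to 3474 CPM with DAPT. They did not move as 1 group. *KRT5*, *KRT14*, *KRT6A*, *KRT17* and *TP63* were called lower, *CDH1* and *EPCAM* higher, and *DSG3* was not called. Across all genes tested, 18.0% were called lower and 17.2% higher. *KRT14*, with 11, 0 and 8 reads under DAPT, passed the filter through the control group alone, which favours a lower call. *KRT5*, at 2695 CPM in the controls and 1313 CPM with DAPT, made up most of the difference in the sum. Control replicate 1 stood apart from the other libraries. Its 5 fibroblast markers summed to 552 CPM against 55.0 and 56.2 CPM in the other controls and 48.6 to 53.2 CPM with DAPT, with 3452 reads of *COL1A2* against 3 to 28 elsewhere. Values without this library are therefore given as well. Nothing in the labels says that replicates came from separate cultures, so the errors and p-values measure only the spread among these libraries.

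Promoter sequence from RefSeq (GRCh38.p14), from position -250 to 50 bases after a start site, was available for 7 of the 9 genes. None was available for *FABP4* and *FABP5*. The available sequence was searched on both strands for 3 motifs. TGGGAA is the core motif of the Notch effector CSL, and AGGTCA the half-site of many nuclear receptors. AGTTCA is a half-site of retinoic acid response elements. Other variants of these half-sites were not searched. Of 35116 such 300-base promoters, 24% held TGGGAA, 13.8% AGGTCA and 10.4% AGTTCA. *CRABP2* had none of the 3 motifs in its window. *RARG* had TGGGAA, starting 216 bases before its start site. The third sequence belongs to *CYP26A1*, which encodes a retinoic acid hydroxylase and is a known retinoic acid target. One of its windows held a pair of AGTTCA half-sites, 5 bases apart, read here on the opposite strand. The sequences are shown 5′ to 3′ on each gene's strand, with motifs in capitals, and stop short of annotated exons or are limited to the site.
CRABP2, chr1:156705817-156706034, minus strand, positions -250 to -33: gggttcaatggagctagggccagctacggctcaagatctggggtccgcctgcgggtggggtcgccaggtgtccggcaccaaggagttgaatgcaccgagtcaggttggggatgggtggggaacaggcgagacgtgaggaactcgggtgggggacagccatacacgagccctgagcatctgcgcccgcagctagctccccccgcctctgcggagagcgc
RARG, chr12:53232257-53232459, minus strand, positions -250 to -48: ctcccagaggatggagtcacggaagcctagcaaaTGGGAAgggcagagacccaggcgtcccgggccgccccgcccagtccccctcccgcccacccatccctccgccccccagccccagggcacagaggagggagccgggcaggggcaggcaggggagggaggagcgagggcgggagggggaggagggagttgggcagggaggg
CYP26A1, chr10:93073797-93073825, plus strand, positions -96 to -68: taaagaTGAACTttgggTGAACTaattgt
Among the other windows of the set, TGGGAA lay in *PPARD* at position 43, in *RARA* at position -192 from 2 of its 3 start sites and in *PPARG* at position 17 of 1 of its 6. AGGTCA lay in 1 window of *RARA* and in 3 of *PPARG*, and AGTTCA in 1 of *PPARG*. *FABP3* and *FABP6* held none of the 3 motifs. These matches describe the letters in these windows and say nothing of binding.

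Of the 9 genes, 7 had enough reads to pass the low-count filter. In the edgeR fit across 15001 genes, 5 of them had an adjusted p under 0.05 with lower counts under DAPT and 0 with higher counts. Over all genes tested, 18.0% were called lower and 17.2% higher. In 5 of the 7 every DAPT library lay below every control library, as for 22.6% of all genes tested. These counts stand side by side as a description, since the contrast itself was used in choosing the genes. *FABP3* and *FABP4* passed the filter through the control group alone, so their groups had to lie apart, which favours a lower call.

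*FABP5* (ENSG00000164687, GRCh38 chr8:81280536-81284777, plus strand) encodes the epidermal fatty acid binding protein. It had 2578, 2192 and 1775 reads in the control libraries and 638, 550 and 491 with DAPT. Scaled by library size and TMM factor, these were 160.2, 158 and 147 CPM against 41.4, 40.1 and 37.7 CPM. The 3 DAPT libraries lay close together and far below the lowest control. The group means were 155 ± 7.20 and 39.7 ± 1.89 CPM (SD, n = 3), a log2 fold change of -1.96 ± 0.06 (SE), or 3.90-fold lower. Of all genes tested, 0.32% had a more negative value. Without control replicate 1 the log2 fold change of *FABP5* was -1.94. These values rest on the reads that were counted, and 95.2% of the 75-base windows of its canonical transcript recur elsewhere in the genome. The lower *FABP5* level went with lower levels of 5 of the 8 squamous markers, while 2 were higher and 1 was not called. Across all genes tested, 18.0% were called lower and 17.2% higher. Among the 5 lower markers was *KRT14*, which passed the filter through the control group alone. The part of these markers in the *FABP5* result was not tested. In bulk RNA, fewer expressing cells and less RNA per cell cannot be told apart.

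*CRABP2* (ENSG00000143320, chr1:156699606-156705816, minus strand) encodes cellular retinoic acid binding protein 2, which passes retinoic acid to its nuclear receptors. Its reads numbered 2600, 2381 and 1986 in the controls and 1578, 1164 and 1129 with DAPT. The normalized levels were 162, 172 and 164 CPM against 102, 85.0 and 86.6 CPM. All DAPT libraries were below all controls, and DAPT replicate 1 was the highest of its group. The means were 166 ± 5.24 and 91.3 ± 9.59 CPM (SD, n = 3), giving a log2 fold change of -0.86 ± 0.06 (SE), or 1.81-fold lower. The value of *CRABP2* without control replicate 1 was -0.88.

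**Figure D1:**
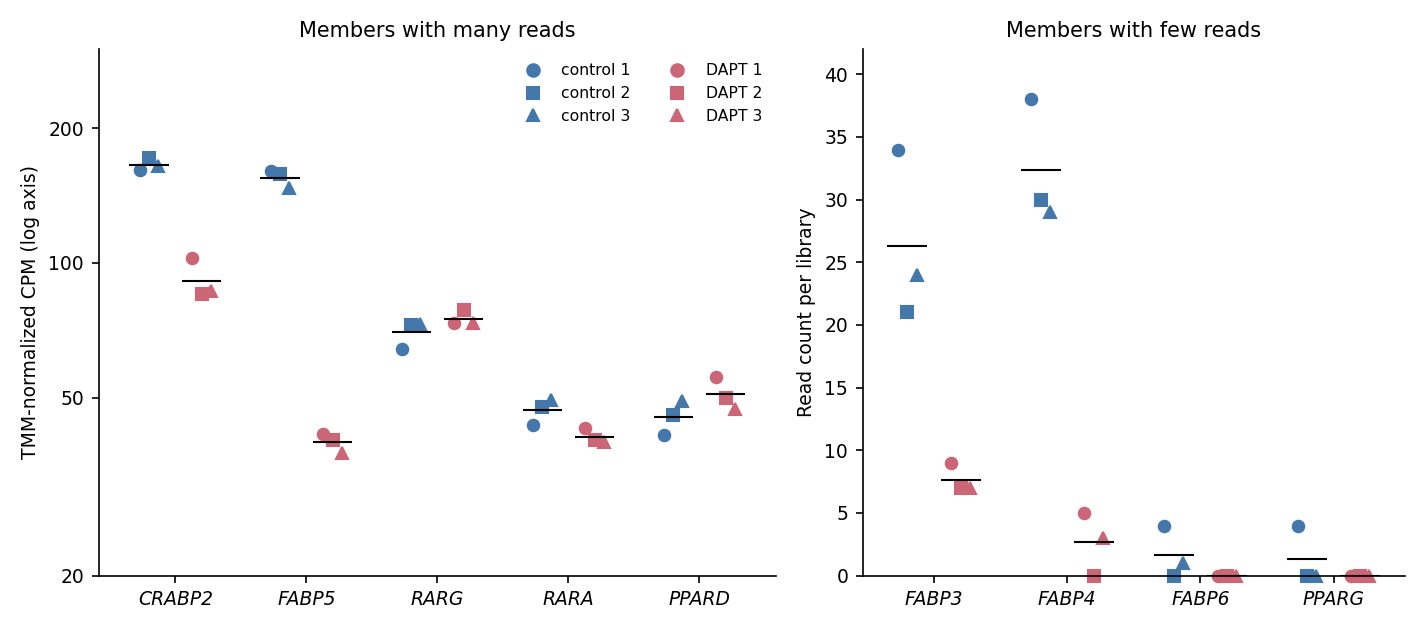
Left, TMM-normalized CPM on a log axis for the 5 genes with many reads. Right, read counts on a linear axis for the 4 genes with few. Each point is 1 library, circles, squares and triangles mark replicates 1, 2 and 3, and horizontal bars are group means. *FABP5* and *CRABP2* are clearly separated between control (blue) and DAPT (red), *RARG*, *RARA* and *PPARD* lie close together, and *FABP6* and *PPARG* have at most 4 reads in any library.

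*FABP4* and *FABP3* were detected at low level in the controls. *FABP4* (ENSG00000170323, chr8:81478419-81483263, minus strand) encodes the adipocyte form, and its reads numbered 38, 30 and 29 in the controls and 5, 0 and 3 with DAPT. DAPT replicate 2 thus had no read, which allows a level of up to 0.224 CPM, and the groups were far apart. The fitted log2 fold change of *FABP4* was -3.54 ± 0.43 (SE, n = 3 per group). It depends on how the fit treats counts near 0. The summed reads, 97 against 8, scaled to library size, gave a ratio of 12.2 with a 95% counting interval of 5.93 to 28.9. The fitted value was -3.52 without control replicate 1, the library with the raised fibroblast markers.

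Adipocytes, macrophages and endothelial cells also express *FABP4*. The adipocyte marker *ADIPOQ* and the macrophage marker *CD163* were at 0 in all 6 libraries. The 5 adipocyte markers, of which 2 passed the filter, summed to 4.78 to 7.19 CPM in the controls and 4.73 to 5.62 CPM with DAPT. *PLIN4*, at means of 5.20 and 4.04 CPM and not called, made up most of this sum. The 6 macrophage markers, of which 1 passed and was called lower, summed to 10.9 to 13.1 and 8.90 to 10.7 CPM. That marker, *CD14*, made up most of the sum at means of 11.7 and 9.41 CPM, and the other 5 had too few reads to be tested. The 5 endothelial markers, of which 2 passed, summed to 1.24 to 1.80 and 2.41 to 2.98 CPM. *CDH5* alone was higher in that list, with 14 reads over the controls and 77 over the DAPT libraries, while *VWF* had 45 and 33 and *KDR* 3 and 0. *CDH5* passed the filter through the DAPT group alone, which favours a higher call.

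*FABP3* (ENSG00000121769, chr1:31365625-31376850, minus strand), the heart and muscle form, had 34, 21 and 24 reads in the controls and 9, 7 and 7 with DAPT. Every DAPT library was below every control, although no DAPT library reached 10 reads. The log2 fold change of *FABP3* was -1.77 ± 0.32 (SE, n = 3 per group). The ratio of summed reads, 79 against 23, was 3.44 with a 95% counting interval of 2.14 to 5.74. Without control replicate 1 the fitted value of *FABP3* was -1.65.

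*FABP6*, the ileal bile acid binding protein (ENSG00000170231, chr5:160187367-160238735), had 4, 0 and 1 reads in the controls and 0 in every DAPT library. *PPARG*, which encodes the adipogenic fatty acid receptor (ENSG00000132170, chr3:12287368-12434356), had 4, 0 and 0 reads in the controls and 0 in every DAPT library. In both genes the mean was under 3 counts a library in each group, so no fold is given, and 4 of the 5 and all 4 reads came from control replicate 1. At this depth a difference in either gene was not detectable.

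The receptors with many reads differed little between the groups. *RARA*, which encodes retinoic acid receptor α (ENSG00000131759, chr17:40309180-40357643), had 699, 660 and 597 reads in the controls and 658, 551 and 519 with DAPT. In CPM these were 43.4, 47.6 and 49.4 against 42.7, 40.2 and 39.8, so the groups were separate by less than 1 CPM. The log2 fold change of *RARA* was -0.19 ± 0.07 (SE, n = 3 per group), and -0.24 without control replicate 1. Its place among the genes called was not stable. The call was lost with DESeq2, with library size alone, without the low-count filter, and when control replicate 2 or 3 or DAPT replicate 2 or 3 was left out.

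*RARG*, the retinoic acid receptor γ of epidermis (ENSG00000172819, chr12:53210567-53232980), had 1032, 1008 and 881 reads in the controls and 1131, 1075 and 955 with DAPT. Its levels were 64.1, 72.7 and 72.8 CPM against 73.3, 78.5 and 73.2 CPM. The lowest DAPT library was just above the highest control, and the log2 fold change was 0.10 ± 0.06 (SE), with a 95% interval of -0.02 to 0.23. *PPARD*, the receptor that FABP5 serves (ENSG00000112033, chr6:35342558-35428191), had 664, 633 and 594 reads in the controls and 858, 685 and 614 with DAPT. Its groups overlapped at 41.3, 45.6 and 49.1 CPM against 55.6, 50.0 and 47.1 CPM. The log2 fold change of *PPARD* was 0.17 ± 0.08 (SE), with a 95% interval of 0.01 to 0.33, and neither *RARG* nor *PPARD* was called. Without control replicate 1 the values were 0.05 for *RARG* and 0.11 for *PPARD*. *PPARD* was called higher with library size alone and without control replicate 3.

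The partner receptors of the family, named whatever their values, also differed little. *RXRA*, encoding retinoid X receptor α, had a log2 fold change of -0.06 ± 0.05 (SE; edgeR adjusted p = 0.368). For *RXRB* the value was 0.07 ± 0.07 (adjusted p = 0.415), and for *PPARA*, the fatty acid receptor of liver, it was 0.16 ± 0.08 (adjusted p = 0.104). *PPARA* was called higher with library size alone. *RARB*, a retinoic acid receptor that is itself a retinoic acid target, had 2 to 7 reads a library and was not tested.

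Levels were compared between genes per length, as TPM (transcript share per 1e6) from the exonic length in the count tables. In the controls *CRABP2* stood first at 535 ± 14.4 TPM (SD, n = 3), followed by *FABP5* at 284 ± 11.3 TPM and *RARG* at 47.6 ± 3.47 TPM. *PPARD* at 35.5 ± 3.27 TPM and *RARA* at 34.5 ± 2.38 TPM overlapped. *FABP3* at 6.37 ± 1.10 and *FABP4* at 5.77 ± 0.36 TPM also overlapped, and *FABP6* and *PPARG* were last with overlapping ranges. In the controls the carriers *CRABP2* and *FABP5* were thus several times as abundant as any of the receptors. With DAPT the order of the means was the same, with *CRABP2* at 316 ± 31.1, *FABP5* at 78.2 ± 3.20, *RARG* at 54.8 ± 2.26, *PPARD* at 42.8 ± 3.34 and *RARA* at 32.3 ± 1.00 TPM.

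The place of *FABP5* depended on the length used, because its exonic length is 1904 bases and its canonical transcript has 676. For canonical lengths, the TPM of each gene of the set was rescaled from its exonic to its canonical length. The lengths of all other genes stayed exonic and the total was not recomputed, so the rescaled values are not transcript shares. Only the order of the genes of the set within a group is read from them. With canonical lengths *FABP5* was first in the controls at 800.5 ± 31.8 and *CRABP2* second at 594 ± 16.01. With DAPT, on the same scale, *CRABP2* was first at 351 ± 34.5 and *FABP5* second at 220.1 ± 9.0.

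The balance of *FABP5* to *CRABP2* was followed as the ratio of their TPM values, since these carriers serve different receptors. The ratio was 0.564, 0.523 and 0.508 in the controls and 0.230, 0.269 and 0.247 with DAPT. The groups did not overlap, and the mean was 0.532 ± 0.029 in the controls and 0.248 ± 0.019 with DAPT (SD, n = 3), 2.14-fold lower. As both genes were chosen with the contrast known, this is a description. The level of the ratio depends on the length used. With canonical lengths *FABP5* stood above *CRABP2* in the controls and below it with DAPT. It may also be too low, as *FABP5* reads that mapped to several places were not counted. The ratio of *PPARD* to *RARG* was 0.740, 0.722 and 0.776 in the controls and 0.873, 0.733 and 0.740 with DAPT, so the groups overlapped. The log2 ratio of *PPARD* to *RARG* was 0.06 higher with DAPT, and -0.02 without DAPT replicate 1. The ratio of *FABP4* to *FABP5* was 0.0201, 0.0187 and 0.0223 in the controls and 0.0107, 0 and 0.00833 with DAPT, on few reads of *FABP4*.

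*FABP5* has processed pseudogenes, copies of its spliced RNA elsewhere in the genome, and reads that mapped to several places were not counted. Of the 602 windows of 75 bases, the read length, in the canonical *FABP5* transcript, 573 (95.2%) recurred unchanged elsewhere in GRCh38. The other 8 genes had 0 such windows. The copy at *FABP5P7* on chromosome 11 held 95.2% of the windows, *FABP5P1* 28.4% and *FABP5P2* 21.9%, both on chromosome 13. *FABP5P11*, *FABP5P9* and *FABP5P10* held 5.98%, 2.49% and 2.33%.

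**Figure D2:**
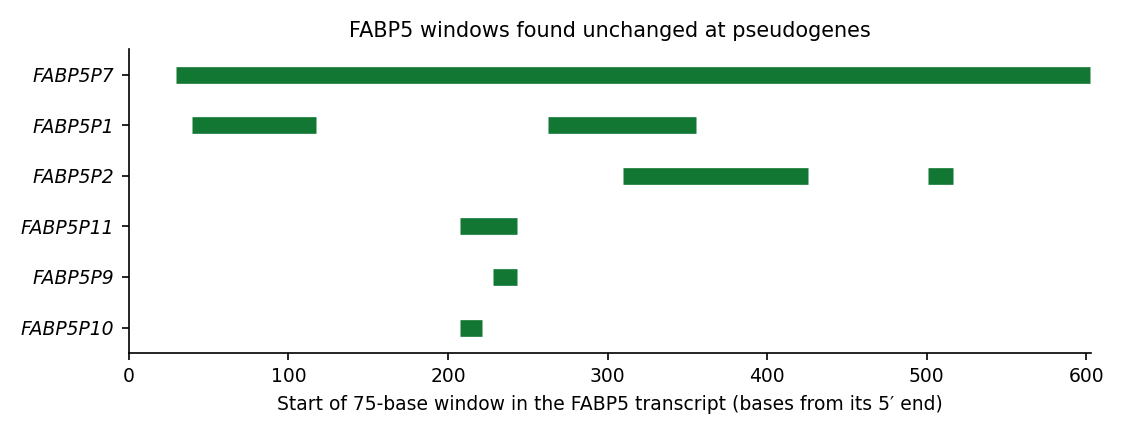
Position of the repeated 75-base windows along the canonical *FABP5* transcript, in bases from its 5′ end, with 1 bar for each run of window starts found unchanged at a pseudogene. *FABP5P7* covers all but the first windows (95.2%), while the other 5 copies cover at most 28.4%.

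The 15 *FABP5* pseudogenes in the count tables had 4 to 12 reads a library in all, 33 over the controls and 15 over the DAPT libraries. No read was counted for 6 of them. Reads inside repeated windows may have been dropped from *FABP5*, so its TPM may be too low beside other genes, and the share dropped was not measured. The fold change of *FABP5* rests on the same counted reads, and whether the share dropped differed between the groups was not tested. Among the other members, *RARA* is overlapped on the opposite strand over 17.9% of its exonic bases, *FABP6* over 9.36% and *FABP5* over 4.2%. Reads were counted by strand, and no member overlaps a gene on its own strand.

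The other genes of the pathway were taken from 6 lists with 99 distinct genes, chosen with earlier results of these data known. Of these, 66 were tested, 15 fell and 10 rose (edgeR, adjusted p under 0.05 over all genes), with a median log2 fold change of 0.00. These are 22.7% lower and 15.2% higher, beside 18.0% and 17.2% of all genes tested, so the lists together lay near the background. Given how the lists were chosen, their shares, together or singly, are a description. Without control replicate 1 the counts were 16 and 10. Among the paralogs of the binding proteins, *FABP7*, the brain form, and *CRABP1*, the second retinoic acid binding protein, had 0 reads in every library.

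Of the 22 genes of retinoid metabolism, 17 were tested, 5 fell (29.4%) and 2 rose (11.8%), with a median log2 fold change of -0.21, against 18.0%, 17.2% and 0.01 over all genes tested. *STRA6*, the receptor that imports retinol, fell from 146, 160.5 and 158 CPM to 112, 107 and 102 CPM, by 0.53 on the log2 scale (SE 0.06, edgeR adjusted p = 1.43e-07). *ALDH1A1*, a retinaldehyde dehydrogenase that makes retinoic acid, had 71, 38 and 40 reads in the controls and 14, 16 and 22 with DAPT. Its log2 fold change was -1.50 ± 0.26 (SE; edgeR adjusted p = 0.000107) and -1.28 without control replicate 1. Its more abundant paralog *ALDH1A3* fell less, from 220.2 ± 4.44 to 182 ± 1.81 CPM (SD, n = 3), a log2 fold change of -0.28 ± 0.05 (SE; edgeR adjusted p = 0.000101).

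Retinoic acid is broken down by enzymes of the CYP26 family. *CYP26A1* had 67, 75 and 66 reads in the controls and 33, 43 and 38 with DAPT, and its log2 fold change was -0.87 ± 0.19 (SE; edgeR adjusted p = 0.00114). *CYP26B1* fell from 22.6 ± 0.50 to 18.2 ± 0.34 CPM (SD, n = 3), by 0.31 on the log2 scale (edgeR adjusted p = 0.00367). The 2 genes that rose were *SDR16C5*, a retinol dehydrogenase, from 11.8 ± 0.51 to 17.4 ± 0.94 CPM (edgeR adjusted p = 8.08e-05), and *RETSAT*, retinol saturase, from 43.6 ± 2.87 to 52.5 ± 1.72 CPM (adjusted p = 0.00358). *ALDH1A3* and *CYP26B1* are outside the rule for named genes and were chosen after their values were seen.

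**Figure D3:**
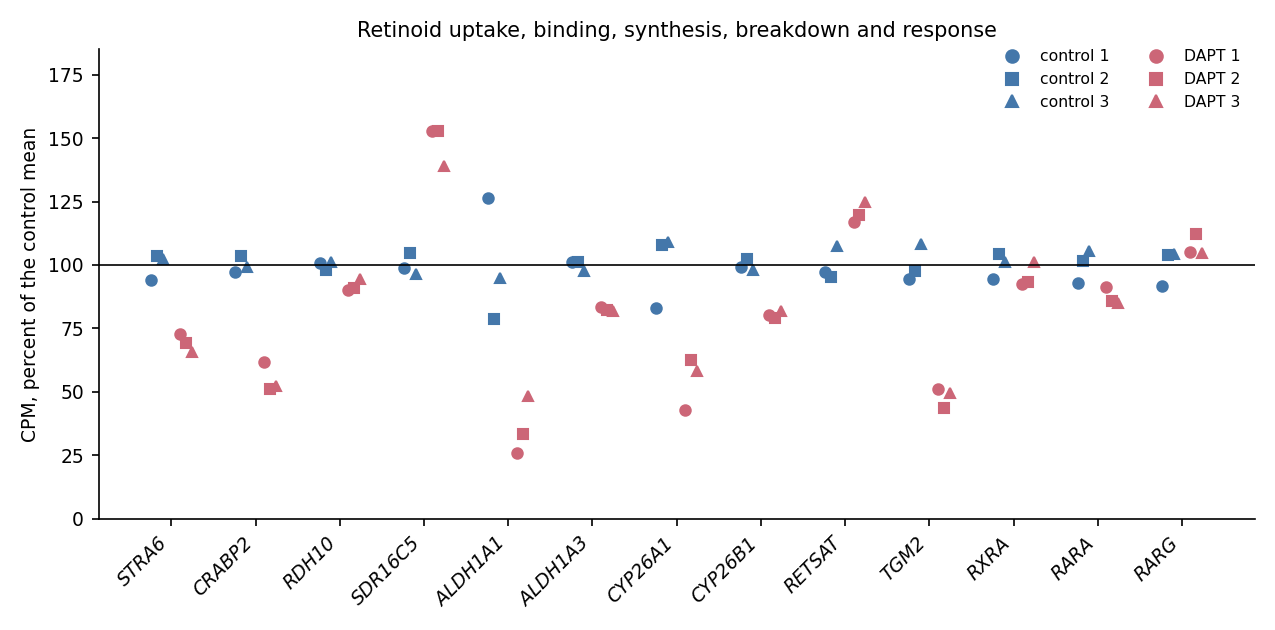
CPM of each library as percent of the control mean, for genes of retinoid uptake, binding, synthesis, breakdown and response. Each point is 1 library, with circles, squares and triangles for replicates 1, 2 and 3. The DAPT points (red) of *STRA6*, *CRABP2*, *RDH10*, *ALDH1A1*, *ALDH1A3*, *CYP26A1*, *CYP26B1*, *TGM2* and, narrowly, *RARA* lie below all controls (blue). Those of *SDR16C5*, *RETSAT* and, narrowly, *RARG* lie above them, and those of *RXRA* overlap them.

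Of 13 genes known to respond to retinoic acid, 10 were tested, 5 fell (50.0%, against 18.0% of all genes) and 0 rose. The median log2 fold change was -0.24 against 0.01 over all genes. This list too was chosen with earlier results of these data known, so its share is a description. *CYP26A1*, *CYP26B1* and *STRA6* are in the metabolism list as well. *TGM2*, tissue transglutaminase, fell from 99.5, 103 and 114 CPM to 54.1, 45.9 and 52.3 CPM. All DAPT libraries were well below the controls, with a log2 fold change of -1.05 ± 0.07 (SE; edgeR adjusted p = 8.95e-11). *BTG2*, an antiproliferative gene named after its values were seen, fell from 56.8 ± 3.72 to 44.6 ± 0.99 CPM (SD, n = 3; edgeR adjusted p = 0.000307). Up to 2 genes of this list were called higher under other settings.

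Among the 14 receptor partners and cofactors 11 were tested, 1 fell (9.09%) and 4 rose (36.4%), beside 18.0% and 17.2% of all genes tested. The coactivator *NCOA1* rose from 41.9, 40.01 and 39.8 CPM to 64.5, 62.9 and 58.3 CPM, a log2 fold change of 0.61 ± 0.06 (SE; edgeR adjusted p = 2.16e-07). *NCOR1*, a corepressor, rose from 195 ± 3.47 to 240.3 ± 11.9 CPM (SD, n = 3; adjusted p = 6.22e-05), and the coactivator *NCOA2* from 68.6 ± 0.88 to 83.2 ± 1.68 CPM (adjusted p = 0.00032). *MED1*, a mediator subunit named after its values were seen, was the other that rose, from 92.7 ± 2.44 to 109 ± 4.35 CPM (adjusted p = 0.00137). *PPARGC1B*, a coactivator of fatty acid oxidation genes, fell from 5.48 ± 0.41 to 4.01 ± 0.51 CPM (edgeR adjusted p = 0.0308). Its call was lost with DESeq2, with library size alone, without the filter, and without control replicate 3 or DAPT replicate 1 or 3.

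**Figure D4:**
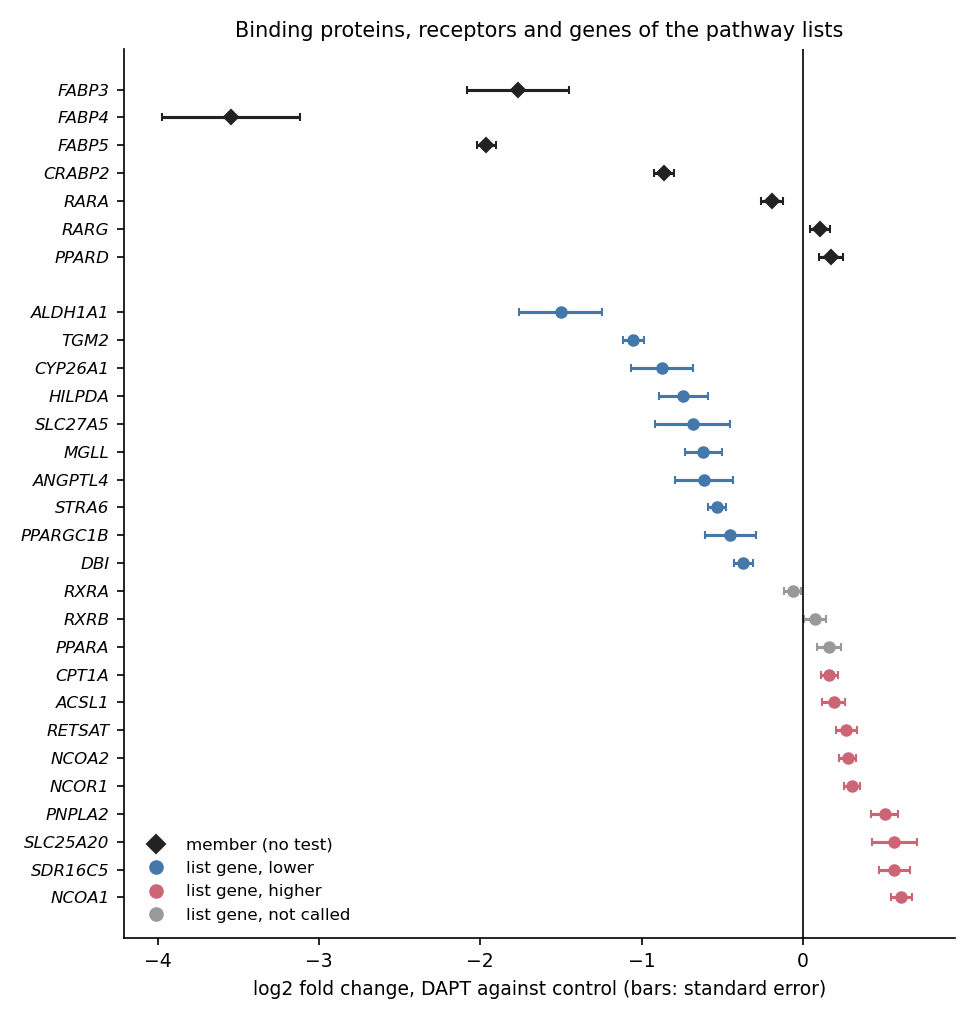
Log2 fold change of DAPT against control with its standard error (bars) from the edgeR fit, for the 7 tested genes of the set (black diamonds, no test) and the named genes of the pathway lists (circles, blue lower, red higher, grey not called). *FABP4*, *FABP5* and *FABP3* have the most negative values, from -3.54 to -1.77, while *RARG* and *PPARD* lie just above 0.

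The PPAR targets moved in both directions. Of 28, 17 were tested, 2 fell and 2 rose (11.8% each), beside 18.0% and 17.2% of all genes tested. Their median log2 fold change was 0.00. *HILPDA*, a lipid droplet protein, fell from 9.51, 8.29 and 7.11 CPM to 4.08, 5.62 and 5.37 CPM (log2 fold change -0.74 ± 0.15, SE; edgeR adjusted p = 0.000627). *ANGPTL4*, a lipase inhibitor, fell from 4.03 ± 0.20 to 2.64 ± 0.09 CPM (SD, n = 3; edgeR adjusted p = 0.0104), a call that was lost with DESeq2. *SLC25A20*, the mitochondrial carnitine carrier, rose from 5.61 ± 0.89 to 8.36 ± 0.64 CPM (edgeR adjusted p = 0.00326). *CPT1A*, which makes the acylcarnitines, rose from 71.1 ± 2.02 to 79.6 ± 0.50 CPM (edgeR adjusted p = 0.0211), and its call was lost with DESeq2 and without control replicate 2 or DAPT replicate 2 or 3.

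Fatty acid uptake and activation gave 14 tested genes of 18, with 4 lower (28.6%), 2 higher (14.3%) and a median log2 fold change of -0.02. Across all genes tested, 18.0% were called lower and 17.2% higher. *MGLL*, which frees fatty acids from monoglycerides, fell from 16.7 ± 1.58 to 11.0 ± 1.6 CPM (SD, n = 3; edgeR adjusted p = 0.000203). *DBI*, the acyl-CoA binding protein, fell from 96.2 ± 1.16 to 74.4 ± 5.95 CPM (edgeR adjusted p = 4.32e-05). *SLC27A1*, a fatty acid transport protein named after its values were seen, fell from 15.9 ± 0.71 to 12.6 ± 1.13 CPM (edgeR adjusted p = 0.0114), a call that was lost without DAPT replicate 2. *PNPLA2*, adipose triglyceride lipase, rose from 52.1, 69.6 and 64.1 CPM to 91.7, 87.6 and 83.7 CPM (log2 fold change 0.51 ± 0.09, SE; edgeR adjusted p = 0.000498), and its value was 0.39 without control replicate 1. *SLC27A5*, the bile acyl-CoA ligase, fell from 2.56 ± 0.24 to 1.6 ± 0.21 CPM (edgeR adjusted p = 0.0251). Without control replicate 1 its adjusted p was 0.0769, and its call was lost as well without control replicate 3 or DAPT replicate 1 and with DESeq2. *ACSL1*, an acyl-CoA synthetase, rose from 29.9 ± 1.04 to 34.1 ± 1.59 CPM (edgeR adjusted p = 0.0498). This call was lost under DESeq2, RLE or upper quartile scaling, without the filter, without the robust fit, and without any 1 library other than DAPT replicate 3.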

How the data were processed

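Per the paper, single-end reads of 75 bases from a strand-directional library were trimmed with Trim Galore and mapped to GRCh38 with HISAT2. Per the file headers, reads on the exons of Ensembl genes were counted with featureCounts 1.6.3, by strand, and the authors deposited these counts per gene and library without normalization. Reads mapping to several places or overlapping several genes were not counted. HTSeq and DESeq2 are also listed in the submitters' processing notes. Of the 58884 gene identifiers, 58472 were matched to GENCODE release 44 for symbols, and coordinates are those of the count tables.

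Groups and replicate numbers came from the labels. The 3 DAPT and 3 control libraries were compared with edgeR 4.0.16 in R 4.3.3 (filterByExpr by group with a minimum count of 10, TMM, robust quasi-likelihood fit, F test, Benjamini-Hochberg adjustment over 15001 genes, call at an adjusted p under 0.05). Standard errors were derived from the F statistic. TPM used the exonic length in the count tables. An alternative, chosen after seeing the data, rescaled the TPM of the members to canonical transcript lengths without recomputing the total. Exact recurrence of transcript windows was searched across 25 chromosomes of GRCh38. The members and lists were chosen with earlier results of these data known. The named genes are the members, *RXRA*, *RXRB*, *RARB*, *PPARA*, *FABP7*, *CRABP1*, *HES1*, the pseudogenes of members as a group, and in each list up to 3 lower and 3 higher called genes of at least 1 CPM with the largest log2 fold changes, with exceptions marked. A further gene of the rule is not reported here. The fit was tested on simulated data. Alternatives were DESeq2 1.42.0, limma-voom 3.58.1, RLE, upper quartile and library size scaling, a non-robust fit, leaving out the filter or asking for 10 reads in each of the 6 libraries, a replicate block, and leaving out each library. Total counts of 12276313 to 16317672 limit the precision of genes with few reads.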

Additional observations from a re-analysis of the deposited data

How the results depend on the processing

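The number of members called lower was 5 and went to 3 when at least 10 counts in every library were required, since *FABP3* and *FABP4* were then not tested. It was 4, through *RARA*, with DESeq2, library size alone and no filter, and 4 to 5 when each library was left out. The number called higher was 0 and went to 1 (*PPARD*) with library size alone, and leaving out each library gave 0 to 1. With library size alone, 2156 of all genes were lower and 3445 higher, against 2707 and 2574. The log2 fold change of *FABP4* was -3.95 with limma-voom and -4.25 to -3.00 when a DAPT library was left out. The log2 ratio of *PPARD* to *RARG* reversed, from 0.06 to -0.02, without DAPT replicate 1, and leaving out each library gave -0.02 to 0.11. In the order of levels in the controls, CPM without length scaling and canonical lengths both put *FABP4* 6, *FABP3* 7, *RARA* 4 and *PPARD* 5, and canonical lengths put *FABP5* 1 and *CRABP2* 2. Counts for the lists moved by at most 2 genes, and over all lists together 12 to 16 genes were lower and 8 to 14 higher. Receptor partners called lower went from 1 to 0 and those called higher from 4 to 5. Retinoid metabolism genes called lower went from 5 to 6, and retinoic acid responsive genes called higher from 0 to 1 or 2. PPAR targets called lower went from 2 to 1 or 3, and those called higher from 2 to 1 or 3. Uptake genes called lower went from 4 to 3, and those called higher from 2 to 1. Over 15 alternatives the call of *RARA* changed in 7 and that of *PPARD* in 2, and those of *FABP5*, *CRABP2* and *RARG* in 0. Those of *FABP3* and *FABP4* changed in 0 of the 14 that tested them. Apart from *FABP3* and *FABP4* under the stricter filter, the cause was not tested. Since the members were chosen by this contrast, calls that held describe the settings and give no support. *FABP3* and *FABP4* also passed the main filter through the control group alone.

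Replicate numbers did not pair the libraries, as deviations of libraries with the same number correlated at 0.02, 0.04 and -0.02 over 14199 genes. With the replicate block, 2737 of all genes were lower and 2558 higher, and 5 members were lower and 0 higher.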

Other observations

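The genes around *FABP5* and *FABP4*, which lie together on chromosome 8, were examined within 500000 bases on either side, a choice made after the values of the 2 genes were seen. Beside them, 7 genes were tested, of which 2 fell, 3 rose and 2 were not called. Over all genes tested, 18.0% were called lower and 17.2% higher, and a regional effect was not tested. *ZNF704*, a zinc finger gene, fell from 5.85 to 4.01 CPM (log2 fold change -0.55 ± 0.17, SE; edgeR adjusted p = 0.0135), a call that was lost with DESeq2 and without control replicate 3 or DAPT replicate 1. *LNMICC*, a noncoding RNA that overlaps the start of *FABP5* on the opposite strand, fell from 1.06 to 0.392 CPM (log2 fold change -1.44 ± 0.44, SE; edgeR adjusted p = 0.0133), and in the stretch both cover their reads were told apart by strand only. *LNMICC* passed the low-count filter through the control group alone, which favours a lower call, and the call was lost with DESeq2 and without control replicate 3 or DAPT replicate 1 or 2. *IMPA1*, *ZFAND1* and *CHMP4C* rose, with *ZFAND1* going from 59.4 to 96.5 CPM (log2 fold change 0.70 ± 0.06, SE; edgeR adjusted p = 2.99e-08). *PAG1* and *SNX16* were not called, at log2 fold changes of 0.03 ± 0.12 and 0.10 ± 0.09 (SE; edgeR adjusted p = 0.848 and 0.402).

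Around *CRABP2* on chromosome 1, in a window of the same size, 25 other genes were tested, of which 6 fell, 4 rose and 15 were not called. These counts stand beside 18.0% lower and 17.2% higher of all genes tested, and a regional effect was not tested here either. The genes named here were picked after their values were seen. *NES*, which encodes the intermediate filament nestin, fell from 14.5 to 5.57 CPM (log2 fold change -1.39 ± 0.12, SE; edgeR adjusted p = 1.08e-08). *SH2D2A*, a signalling adaptor, fell from 2.9 to 1.29 CPM (log2 fold change -1.16 ± 0.27, SE; edgeR adjusted p = 0.00176). *TMEM79*, an epidermal membrane protein, rose from 18.5 to 25.2 CPM (log2 fold change 0.45 ± 0.08, SE; edgeR adjusted p = 0.000222). The neighbouring *ISG20L2* was not called, at -0.02 ± 0.06 (SE; edgeR adjusted p = 0.837).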
